A study of Mus musculus with 47 samples.

Results

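The endoplasmic reticulum (ER) is where secreted and membrane proteins are folded, glycosylated and checked. The genes described here are the 292 genes, of the 51912 in the deposited tables of bone marrow-derived macrophages (BMDMs), that the annotation of the LPS table assigns to the KEGG pathway of protein processing in the ER, after Nfe2l2, Bcl2, Cul1, Rbx1 and Skp1a were set aside. The choice used the annotation and no measured value, though members, roles and lists were set with earlier results of these data known. Of the 292 genes, 151 are annotated as protein coding, 131 as pseudogenes and 10 otherwise. A role was given to 147 of them, all protein coding, in 10 groups. In all 6 BMDM libraries 114 genes had 0 counts. Counts were found in at least 1 BMDM library for 178 genes, 147 passed the filter on low counts in at least 1 BMDM comparison, and 137 passed it in all 7. A further 16 gene identifiers carry the pathway in the IL-4 table alone and are not members, among them the more abundant of the 2 identifiers named Map2k7.

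A new protein enters the ER through the translocon, receives its sugar tree from the oligosaccharyltransferase, and is folded by luminal chaperones and by the lectins calnexin and calreticulin, which read the trimmed sugar. Folded proteins leave in COPII vesicles, whereas misfolded ones are recognised, drawn back into the cytosol and degraded, a route called ER-associated degradation (ERAD). When unfolded proteins accumulate, the sensors IRE1 (Ern1), PERK (Eif2ak3) and ATF6 start the unfolded protein response (UPR), in which XBP1 and ATF6 switch on chaperone genes through ER stress elements in their promoters, and PERK slows translation while raising ATF4 and CHOP (Ddit3). Macrophages depend on this machinery because activation makes them secrete large amounts of cytokines.

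The ER stress element (ERSE) was searched as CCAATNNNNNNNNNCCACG on both strands of RefSeq promoter windows of 300 bases, which reach from 250 bases before the start to 50 after it (build GRCm38.p6). Promoters were matched for 131 of the 292 genes, 124 of them with a role, which gave 157 windows. The element was found in 10 of the 157 windows (6.37%) and in 39 of 32851 windows of all genes (0.119%). The shorter ERSE-II, ATTGGNCCACG, was found in 1 window of the 157 (0.637%), that of Herpud1, and in 12 of all windows (0.037%). The 5 windows printed below belong to ERSE or ERSE-II genes that the results return to, and the motif is in capitals. In Calr, and in the second match of Hsp90b1, the element lies on the other strand and reads CGTGG first.

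Hspa5, chr2:34771840-34772139, plus strand: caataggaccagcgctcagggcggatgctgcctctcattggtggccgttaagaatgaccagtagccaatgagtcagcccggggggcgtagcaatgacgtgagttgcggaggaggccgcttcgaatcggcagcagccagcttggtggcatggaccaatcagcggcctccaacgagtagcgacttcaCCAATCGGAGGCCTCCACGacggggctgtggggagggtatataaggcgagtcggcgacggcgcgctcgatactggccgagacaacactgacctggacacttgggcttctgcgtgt

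Hsp90b1, chr10:86705395-86705694, minus strand: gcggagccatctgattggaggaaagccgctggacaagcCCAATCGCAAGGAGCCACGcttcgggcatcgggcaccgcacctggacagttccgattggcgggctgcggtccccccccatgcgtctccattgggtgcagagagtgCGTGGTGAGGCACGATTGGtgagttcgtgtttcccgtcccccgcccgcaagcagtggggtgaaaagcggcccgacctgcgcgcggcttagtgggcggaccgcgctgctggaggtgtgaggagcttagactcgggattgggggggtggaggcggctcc

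Calr, chr8:84846882-84847181, minus strand: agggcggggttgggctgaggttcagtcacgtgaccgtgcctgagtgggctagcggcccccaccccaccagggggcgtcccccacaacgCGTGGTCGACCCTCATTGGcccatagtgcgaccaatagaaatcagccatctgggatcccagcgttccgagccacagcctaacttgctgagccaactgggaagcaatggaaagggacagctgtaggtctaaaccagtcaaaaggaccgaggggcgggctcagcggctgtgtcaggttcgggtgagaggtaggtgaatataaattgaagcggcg

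Dnajc3, chr14:118937682-118937981, plus strand: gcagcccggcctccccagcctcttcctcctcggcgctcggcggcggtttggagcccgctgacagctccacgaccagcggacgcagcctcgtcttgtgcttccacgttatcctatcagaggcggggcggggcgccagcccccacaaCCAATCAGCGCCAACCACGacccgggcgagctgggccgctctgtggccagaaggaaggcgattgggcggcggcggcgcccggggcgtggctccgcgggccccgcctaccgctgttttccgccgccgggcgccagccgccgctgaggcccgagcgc

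Herpud1, chr8:94386179-94386478, plus strand: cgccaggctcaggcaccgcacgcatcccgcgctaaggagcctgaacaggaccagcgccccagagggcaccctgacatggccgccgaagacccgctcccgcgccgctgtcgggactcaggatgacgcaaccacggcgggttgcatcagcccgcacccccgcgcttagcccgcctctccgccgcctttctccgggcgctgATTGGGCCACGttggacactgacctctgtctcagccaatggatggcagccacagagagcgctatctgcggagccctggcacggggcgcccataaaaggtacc

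Counted from the start base as 0, the element spans bases -65 to -47 in Hspa5, -162 to -144 in Calr and -105 to -87 in Dnajc3. Hsp90b1 holds it at -212 to -194 and again at -107 to -89, and the ERSE-II of Herpud1 lies at -52 to -42. The other ERSE genes were Canx, Pdia6, Ero1lb, Syvn1, Derl3 and Calr4, of which Derl3 and Calr4 did not pass the filter on low counts in BMDMs. Of the other searched motifs, TGACGTGG (UPRE) occurred in 6 of the 157 windows (3.82%) and in 222 of all (0.676%), TGATGNAAT (CARE) in 1 and in 317, and the heat shock element GAANNTTCNNGAA (HSE) in 4 and in 198. A match describes letters and does not show that a factor binds.

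The values come from 12 RNA-seq libraries out of the 47 samples of the series. BMDMs, which are macrophages grown from marrow for 5 days in M-CSF, came from C57BL/6 WT mice (littermates with the Zmynd8 fl/fl allele and no Cre) and from Zmynd8 cKO mice, in which Cre from the Lyz2 locus deletes the floxed exons in myeloid cells. They were left without treatment (NT) or were given bacterial lipopolysaccharide (LPS, 100 ng/ml) or the cytokine IL-4 (20 ng/ml) for 6 h. Raw264.7 is a mouse macrophage-like line. Its Zmynd8 KO was made with LentiCrispr-V2 and was sequenced as such, with WT Zmynd8 put back, or with the D/E-A mutant, in which acidic residues are changed to alanine. Its p65 KO was sequenced as such, with WT p65 put back, or with p65 K122R, in which lysine is changed to arginine, and these 3 labels name LPS. The labels of the 3 Zmynd8 lines give no treatment, though the study's text places the WT Zmynd8 and D/E-A cells after LPS, and the column taken as WT p65 has a heading that does not name the p65 KO.

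Each condition has 1 library, a mix of 3 biological replicates for BMDMs, so differences between conditions cannot be set against replicates and no p is given. The BMDM libraries held 22597408 to 28386612 counts, the Raw264.7 libraries 15127110 to 21042628 reads. In BMDMs a gene was called higher or lower when its CPM (counts scaled to the same library total), with 1 added, differed at least 1.2-fold and the counts differed by an exact binomial test with Benjamini-Hochberg adjustment below 0.05 over all tested genes, those with a mean of at least 10 counts. That test compares libraries. In Raw264.7 cells the fold alone was used, on deposited normalized values plus 1 for genes whose mean value reached 10. Limits in brackets are 95% exact limits on the reads and cover counting error only. In bulk RNA, fewer cells of a type and less RNA per cell cannot be told apart.

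Zmynd8 CPM in the libraries labelled WT and cKO were 87.1 and 81.5 for NT, 79.0 and 86.8 for LPS, and 128 and 151 for IL-4, but gene-level counts include the exons outside the deletion and so do not check the labels. WT and cKO name the libraries as labelled. Lyz2, the locus that carries Cre, was lower in each cKO library, with 10950 CPM in WT and 7202 CPM in cKO for NT, 6902 and 2892 for LPS and 8941 and 5245 for IL-4. In Raw264.7 cells Zmynd8 had 121 reads in the Zmynd8 KO library against 485 with WT Zmynd8 and 497 with D/E-A, and Rela, which encodes p65, had 765 in the p65 KO library, 1601 with WT p65 and 5850 with K122R. All 8 macrophage markers were above 0 in every library, and in NT 5 of them were lower and 2 higher in cKO than in WT (median -0.37), with sums of 7598 CPM in WT and 7666 CPM in cKO. The 6 dendritic cell markers summed to 1.37 CPM in WT and 0.752 CPM in cKO for NT, 12.8 and 16.0 for LPS, and 5.11 and 5.44 for IL-4. The 9 neutrophil markers summed to 2.37 to 4.22 CPM in NT and LPS BMDMs, to 383 in WT and 515 in cKO after IL-4, and by the same scaling to 4439 (D/E-A), 10423 (WT Zmynd8) and 6995 (Zmynd8 KO) in the Zmynd8 lines against 0.18 to 0.319 in the p65 lines, whose tables list 3 of the 9. In the Zmynd8 lines 7 of 8 macrophage markers were higher and none lower with D/E-A (median log2 change 1.04) and in Zmynd8 KO (0.47) than with WT Zmynd8, and 5 of 5 tested dendritic cell markers were lower with D/E-A. Xist had 7109 to 8467 reads in the Zmynd8 lines and 0 to 3 in the p65 lines, so lines of the 2 sets were compared only within a set. Both sets bear the name Raw264.7 in the study, and whether they are the same line was not tested. In BMDMs Xist stood at 740 CPM in WT and 323 CPM in cKO for NT, 246 and 429 for LPS and 1108 and 1057 for IL-4. The part of these markers, Lyz2 and Xist in the results below was not tested.

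Per transcript length, Hspa8, Calr and Hsp90ab1 stood highest. By the deposited TPM, the cytosolic chaperone Hspa8 had a median of 1807 over the 6 BMDM libraries, the lectin chaperone Calr 794, the cytosolic chaperone Hsp90ab1 732, the ribosome-binding translocon protein Rrbp1 413, and Hspa5, which encodes the master luminal chaperone BiP, 408. Between libraries, Hspa8 was highest after LPS, with 5028 CPM in WT and 4904 CPM in cKO against 2860 and 3051 in NT and 1773 and 1626 after IL-4. At the low end were Fbxo2, which binds misfolded glycoproteins, with a median TPM of 0.025, and the ER-stress caspase Casp12 with 0.19, while Lman1l, Calr4 and Cryaa had a median of 0.

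After LPS most genes of the ER folding line were lower, and a small set of cytosolic chaperones and stress genes was higher. In WT BMDMs 94 of 139 tested members fell and 22 rose, beside 61.3% and 20.7% of all genes tested. In cKO BMDMs 92 of 138 fell and 18 rose, beside 59.0% and 23.9%. The LPS libraries are shifted as a whole: the median log2 change of all genes was -0.58 in WT and -0.55 in cKO, and the members' medians were -0.78 and -0.61. Scaled by the median ratio of the libraries instead, 57 members were lower and 48 higher in WT, beside 37.3% and 37.5% of all genes, and 52 and 49 in cKO, beside 38.2% and 39.2%. The balance of falls and rises over all members thus followed the scaling. Both genotypes, which share no library, called the same 84 members lower and the same 16 higher of 138 tested in both, beside 52.5% and 17.0% of all genes, and no member was called in opposite directions. Under median ratio scaling 42 were lower and 39 higher in both, beside 29.5% and 29.8% of all genes.

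**Figure D1:**
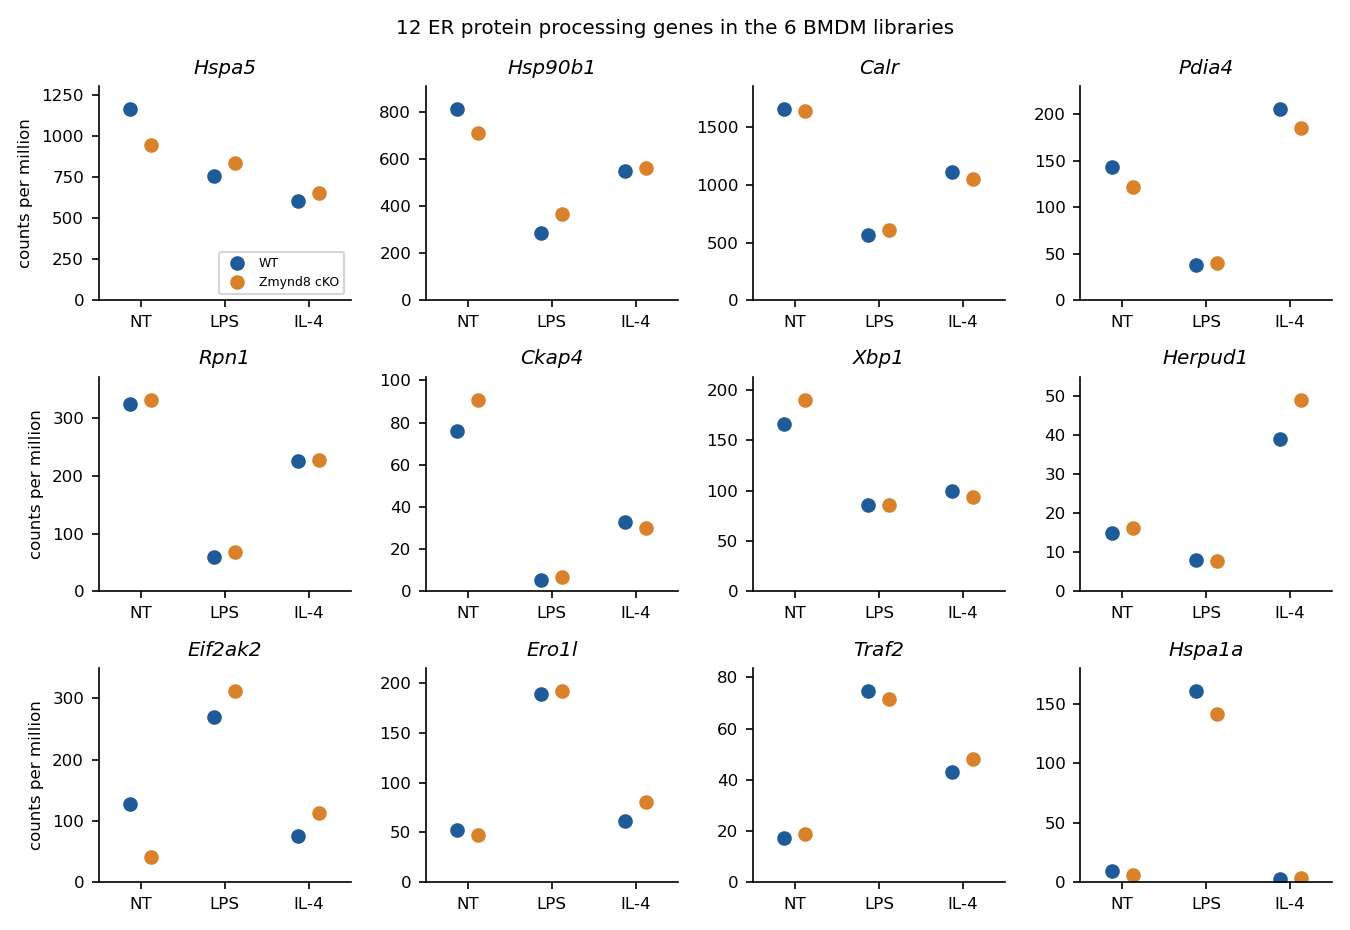
Each panel plots 1 gene, with CPM on the vertical axis and the NT, LPS and IL-4 conditions on the horizontal axis; each point is 1 library, WT in blue and Zmynd8 cKO in orange. Calr, Hsp90b1, Rpn1 and Ckap4 sit lowest after LPS in both genotypes, Hspa1a, Ero1l and Traf2 highest after LPS, and Herpud1 highest after IL-4.

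The luminal chaperone, glycan, translocon and oligosaccharyltransferase groups lay below the median of all genes in both genotypes. The median of the 12 luminal chaperones was -1.40 in WT and -1.17 in cKO, that of the 11 glycan-trimming and calnexin-cycle genes -1.41 and -1.09, that of the 10 translocon genes -1.21 and -1.27, and that of the 7 oligosaccharyltransferase subunits -1.02 and -1.22. Called lower in both genotypes were 8 luminal chaperones, 9 glycan genes, 7 translocon genes and all 7 oligosaccharyltransferase subunits. Under median ratio scaling these counts were 7, 7, 6 and 3, and the group medians stayed below 0 in both genotypes. The 18 tested cytosolic chaperones had medians of 0.04 in WT and 0.22 in cKO, with 7 members higher and 2 lower in both genotypes (14 and 1 under median ratio scaling). ERAD genes stayed near the median of all genes, with group medians between -0.81 and -0.49.

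Calreticulin (Calr) stood at 1656 CPM in WT NT and 1636 CPM in cKO NT, and at 564 CPM and 608 CPM after LPS. Both LPS libraries lay far below both NT libraries, with log2 changes of -1.55 [-1.58, -1.53] in WT and -1.43 [-1.46, -1.40] in cKO. The oligosaccharyltransferase subunit Rpn1 went from 325 CPM to 59.2 CPM in WT and from 332 CPM to 68.9 CPM in cKO. Rpn1 decreased by 2.44 in WT and decreased by 2.25 in cKO on the log2 scale. Ckap4 (chr10:84526305-84534062, minus strand), which shapes ER sheets and is counted with the translocon group, had the lowest log2 change with LPS of all named members, with 76.3 CPM and 90.8 CPM in NT against 5.5 CPM and 6.7 CPM after LPS. Its log2 changes were -3.56 [-4.04, -3.53] and -3.58 [-4.01, -3.53]. Mogs, the glucosidase that removes the first glucose from the sugar tree, changed by -2.92 in both genotypes.

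Luminal chaperones differed among themselves. Hspa5 (chr2:34771970-34777547, plus strand) had 1165 CPM and 943 CPM in NT and 754 CPM and 834 CPM after LPS, a log2 change of -0.63 in WT and -0.18, not called, in cKO. In WT Hspa5 lay close to the median of all genes (-0.58), and under median ratio scaling its change was 0.06, not called. In cKO it lay above the median of all genes (-0.55) and was called higher under median ratio scaling. Dnajc3, a co-chaperone that also restrains PERK, had 99.1 CPM and 79.2 CPM in NT and 21.7 CPM and 31.3 CPM after LPS. The disulfide oxidase Ero1l stood apart from its group, with 52.3 CPM and 48.0 CPM in NT and 189 CPM and 192 CPM after LPS, a log2 change of 1.83 [1.76, 1.94] in WT and 1.98 [1.90, 2.10] in cKO.

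The inducible Hsp70 genes Hspa1a and Hspa1b rose most of all named members. Hspa1a (chr17:34969190-34972156, minus strand) had 9.4 CPM and 6.3 CPM in NT, 161 CPM and 141 CPM after LPS, and 3.1 CPM and 3.8 CPM after IL-4. The log2 changes with LPS were 3.95 and 4.29 for Hspa1a and 3.69 and 4.33 for Hspa1b. They are near-identical copies, so the division of reads between them is uncertain. Traf2, the adaptor that links IRE1 to JNK signalling, rose from 17.2 CPM to 74.7 CPM in WT and from 18.9 CPM to 71.7 CPM in cKO.

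UPR sensors and the downstream stress genes did not move as one. The sensors fell in both genotypes, with log2 changes in WT of -2.20 for Eif2ak3, -1.80 for Ern1 and -0.95 for Atf6, and in cKO of -1.30, -0.37 and -0.53. Under median ratio scaling Ern1 and Atf6 in cKO turned to 0.25 and 0.11. Xbp1 changed by -0.94 in WT and -1.13 in cKO, while Atf4 was level on CPM in both (0.05 and 0.06, not called). The median of all genes on that scale was -0.58 in WT and -0.55 in cKO, so Atf4 lay above it in both. Ppp1r15a, the phosphatase subunit that restarts translation, rose by 1.27 and 0.88. Ddit3 had 51.2 CPM and 50.0 CPM in NT and 81.9 CPM and 57.0 CPM after LPS. It rose by 0.67 [0.58, 0.78] in WT. In cKO it stood at 0.18 [0.07, 0.30], not called on CPM but above the median of all genes.

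**Figure D2:**
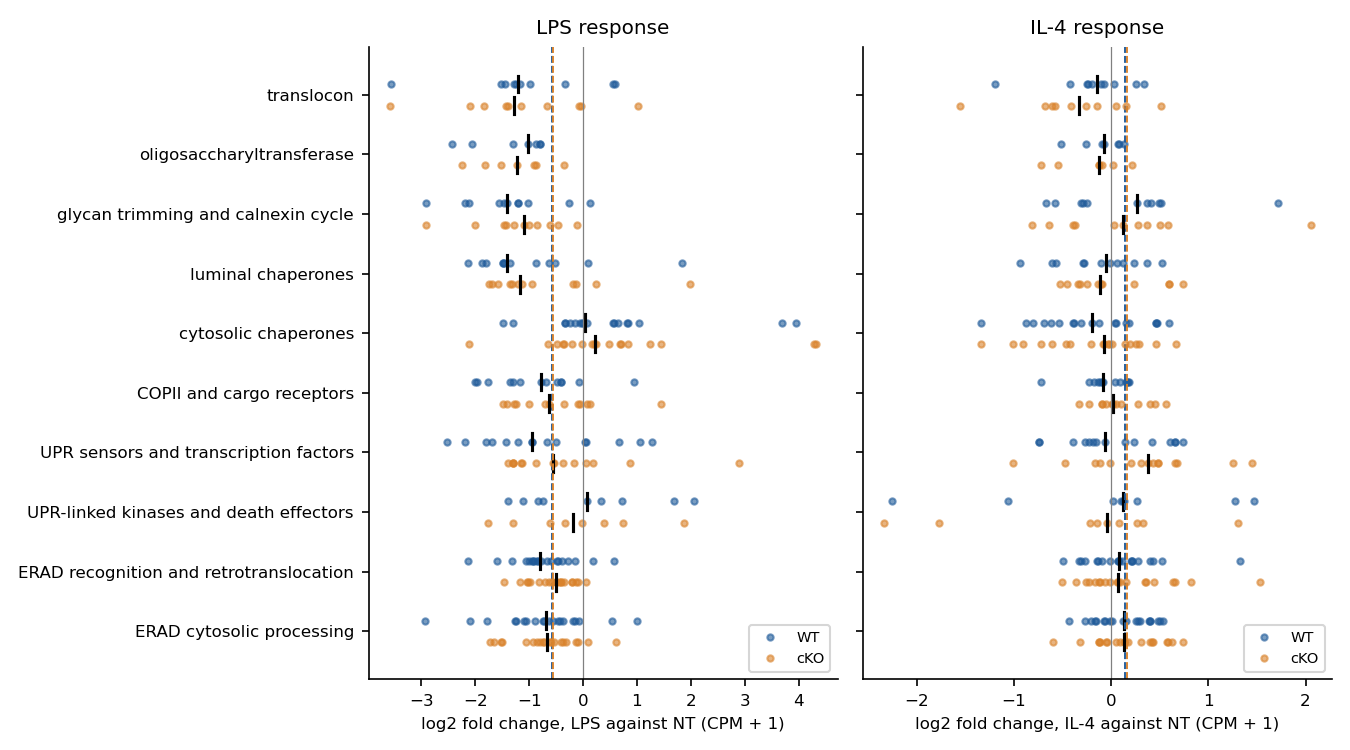
Each point is 1 member of a role group, with its log2 fold change against NT on CPM plus 1 on the horizontal axis, for LPS on the left and IL-4 on the right, WT in blue and cKO in orange; black bars are group medians and dashed lines the median of all genes. After LPS the translocon, oligosaccharyltransferase, glycan and luminal chaperone medians lie between -1.41 and -1.02, left of the dashed lines, and the cytosolic chaperone medians at 0.04 and 0.22, right of them.

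IL-4 changed fewer members, in both directions. In WT 36 of 143 tested members rose and 35 fell, beside 38.8% and 21.8% of all genes, and in cKO 42 of 141 rose and 33 fell, beside 42.4% and 24.9%. The median log2 change was 0.03 and 0.01 for members and 0.15 and 0.17 for all genes. Under median ratio scaling 25 rose and 53 fell in WT, beside 30.3% and 28.3% of all genes, and 32 and 51 in cKO, beside 35.6% and 31.6%. The cKO changes went with transcript length (Spearman's rho 0.35 across members), and with the median change of genes of like length taken off 23 rose and 45 fell, beside 31.1% and 26.5%. In both genotypes 23 of 140 members rose and 23 fell, beside 29.1% and 14.9% of all genes, and under median ratio scaling 16 and 34, beside 22.2% and 20.2%. The IL-4 and LPS responses of a genotype share the NT library and are given side by side only, and the sample numbers in the IL-4 titles do not follow those of the other 4 BMDM libraries.

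Among members with a mean of at least 100 counts, Man1a and Herpud1 rose most with IL-4 and Capn2 fell most. Man1a (chr10:53904785-54076609, minus strand), a mannosidase that trims the sugar tree further, had 70.2 CPM and 66.6 CPM in NT, 24.9 CPM and 26.8 CPM after LPS, and 233 CPM and 280 CPM after IL-4. Its log2 change with IL-4 was 1.72 [1.66, 1.81] in WT and 2.05 [1.99, 2.15] in cKO. Herpud1, which organises ERAD complexes, had 15.0 CPM and 16.2 CPM in NT and 39.1 CPM and 49.0 CPM after IL-4. Both genes were thus highest in the IL-4 libraries and lowest in the LPS libraries. Capn2, a calcium-dependent protease, went from 330 CPM and 322 CPM to 68.4 CPM and 63.1 CPM, and Map3k5, which encodes the stress kinase ASK1, fell by 1.06 in WT and 1.77 in cKO on the log2 scale. Traf2 rose with IL-4 as well, by 1.27 and 1.31.

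Chaperone and sensor genes were called in both directions with IL-4. Hspa5 fell to 608 CPM and 653 CPM, log2 changes of -0.94 [-0.97, -0.91] in WT and -0.53 [-0.56, -0.50] in cKO. Xbp1 fell by 0.74 and 1.01, Calr by 0.58 and 0.63, and Ddit3 by 0.39 and 0.47. Eif2ak3 rose by 0.60 and 0.66, Ern1 by 0.42 and 1.26, and Sel1l, the scaffold of the ERAD ubiquitin ligase, by 0.40 and 0.83. The sensor Atf6 fell by 0.26 in WT and stood at -0.01, not called, in cKO. Pdia4 rose by 0.52 and 0.60, whereas the other disulfide isomerases Pdia3 (-0.28 and -0.39) and Pdia6 (-0.61 and -0.45) fell. With the NT library of the other genotype as reference, the WT changes of Atf6, Dnajc3, Eif2ak2 and Hspa1b with IL-4 turned sign.

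The differences between cKO and WT went with transcript length and turned direction between treatments. In NT 16 of 138 tested members were higher in cKO and 28 lower, beside 21.9% and 26.1% of all genes. The LPS pair gave 27 higher and 6 lower of 139, beside 17.3% and 8.90%, and the IL-4 pair 7 and 6 of 144, beside 14.0% and 10.6%. In all, 13 of 137 members tested in NT and after LPS were lower in cKO in NT and higher in cKO after LPS, beside 10.5% of all genes, and these comparisons share no library. Across genes, Spearman's rho of the log2 change with the length of the longest annotated transcript was -0.56 for members and -0.52 for all genes in the NT pair, 0.51 and 0.34 in the LPS pair, and -0.10 and -0.12 in the IL-4 pair.

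With the median change of genes of like length taken off, 12 members were higher and 13 lower in NT, beside 15.0% and 17.2% of all genes, and 17 and 4 after LPS, beside 11.5% and 8.53%. Of the 137 members 5 then still turned, beside 4.02% of all genes: Atxn3, Edem3, Mbtps2, Sec23a and Sec24d, named after their values were seen. Edem3, which trims mannose from misfolded glycoproteins, had 68.7 CPM in WT and 38.3 CPM in cKO for NT and 14.9 CPM and 23.1 CPM after LPS. The deubiquitinase Atxn3 had 55.6 CPM and 30.2 CPM in NT and 6.4 CPM and 9.9 CPM after LPS. Both genes were lower after LPS than in NT in either genotype.

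**Figure D3:**
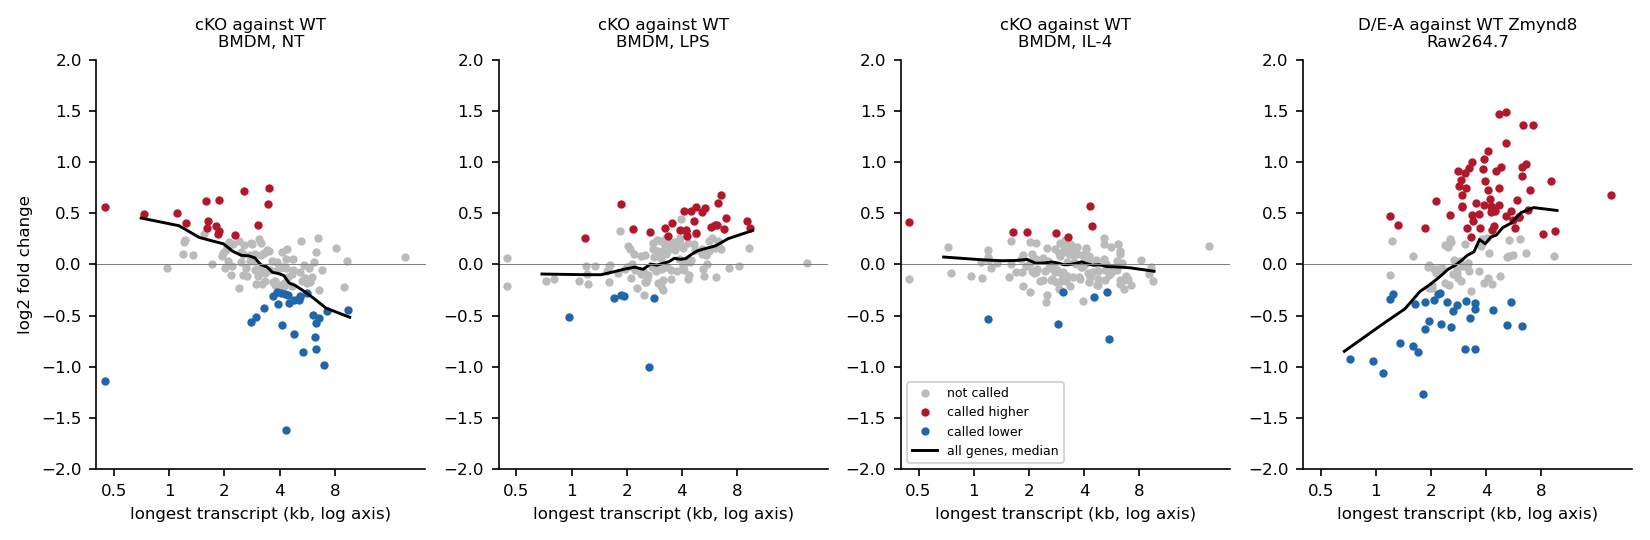
Each point is 1 member, with the length of its longest annotated transcript in kilobases on a log axis and its log2 fold change on the vertical axis, in 3 BMDM comparisons of cKO with WT and in D/E-A against WT Zmynd8; red and blue points were called higher and lower, and the black line is the median of all genes by length. The members follow the line, which falls with length in NT (rho -0.56 for members), rises after LPS (0.51) and in D/E-A (0.52), and is nearly flat after IL-4 (-0.10).

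Eif2ak2, which encodes the double-stranded RNA sensor PKR, was the member that differed most between genotypes. Eif2ak2 had 128 CPM in WT and 41.0 CPM in cKO for NT, 269 CPM and 312 CPM after LPS, and 76.2 CPM and 114 CPM after IL-4. The cKO library was thus lower in NT, with a log2 change of -1.62 [-1.75, -1.54], or -1.52 without the length trend, and higher after IL-4, with 0.57. Ern1 (chr11:106394650-106487852, minus strand) had 55.2 CPM and 27.5 CPM in NT, 15.1 CPM and 21 CPM after LPS and 74.2 CPM and 67.2 CPM after IL-4, and its change in NT went from -0.98 to -0.55 without the length trend. Atf6 in NT went from -0.45 to -0.03, so that its call was lost.

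Of the members whose mean reached 100 counts, those highest in cKO for NT were Dad1 (0.74) and Ssr4 (0.72), small subunits of the oligosaccharyltransferase and of the translocon, Hspbp1 (0.62), which releases nucleotide from Hsp70, and Ubxn6 (0.60), a cofactor of the ERAD ATPase. Without the length trend they stood at 0.77, 0.63, 0.36 and 0.62. By the same limit the highest in cKO after LPS were Sec24a (0.68), Edem3 (0.60), Mbtps2 (0.56), which encodes the protease that frees ATF6, Atxn3 (0.55) and Eif2ak3 (0.52). Ddit3 (-0.52) and Ppp1r15a (-0.33), both downstream of PERK, were lower in cKO after LPS, and so was the BiP exchange factor Sil1 (-0.33, and -0.26 and no longer called without the length trend). Ddit3 stood at 81.9 CPM in WT and 57.0 CPM in cKO. Without the length trend Ddit3 was at -0.42 and Ppp1r15a at -0.33.

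In the Raw264.7 Zmynd8 lines, more members were higher than lower without normal Zmynd8. Of 139 members 61 were higher and 31 lower with D/E-A than with WT Zmynd8, beside 36.7% and 35.9% of all genes, and of 142 members 63 were higher and 21 lower in Zmynd8 KO, beside 34.7% and 28.3%. Both comparisons share the WT Zmynd8 library, so they are not independent. Without the length trend the counts were 48 and 34 with D/E-A, beside 30.0% and 36.5% of all genes, and 40 and 33 in Zmynd8 KO, beside 25.8% and 33.2%. Neutrophil markers, given above, were lower in both libraries than in the WT Zmynd8 library.

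COPII genes had the highest group median in both comparisons, with and without the length trend. UPR sensors and factors came next, with medians of 0.42 (D/E-A) and 0.36 (Zmynd8 KO), but ranked behind the ERAD recognition and glycan groups when the length trend was taken off (0.17 and 0.15). Of 12 COPII genes and cargo receptors 9 were higher and 1 lower in each comparison, with medians of 0.55 (D/E-A) and 0.39 (Zmynd8 KO), and without the length trend 8 and 2 and 7 and 1. Sec24b, a cargo adaptor, had a deposited value of 1388 with WT Zmynd8 and 3153 with D/E-A, and of 1482 and 2304 for WT Zmynd8 and Zmynd8 KO in their own table. Its log2 change with D/E-A was 1.18 [1.09, 1.28], and 0.82 without the length trend. Sec24d, another cargo adaptor, changed by 1.03 and 0.62.

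Of 15 UPR sensors and factors 9 were higher and 1 lower with D/E-A and 10 and 1 in Zmynd8 KO, or 7 and 1 and 6 and 3 without the length trend. Atf6 had a deposited value of 619 with WT Zmynd8 and 1597 with D/E-A, and 661 and 1109 in the table of Zmynd8 KO. It changed by 1.36 and 0.74, or 0.81 and 0.48 without the length trend. Xbp1 changed by 0.62 and 0.49, Eif2ak3 by 0.91 and 0.65, and Ern1 by 0.72 and 0.60. With the length trend taken off Xbp1 stood at 0.74 and 0.45, Eif2ak3 at 0.63 and 0.47, and Ern1 at 0.17, no longer called, and 0.33. Ddit3 was the 1 gene lower in each comparison, at -0.94 and -0.67, with a deposited value of 876 with WT Zmynd8 and 455 with D/E-A.

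Among members with a mean value of at least 100, the sugar-trimming genes Man1a (1.49), Man1c1 (1.47), a related mannosidase, and Edem3 (1.37) rose most with D/E-A. In Zmynd8 KO Man1c1 was at 1.09 and Man1a at 0.99, followed by the ubiquitin-conjugating enzyme Ube2g1 at 0.88 and Edem3 at 0.80. The lowest with D/E-A were Stub1 (-1.26), a ubiquitin ligase that works with Hsp70, Bax (-1.06), a pore-forming death protein, Ddit3 (-0.94), and Sec61b (-0.93), a small translocon subunit. Without the length trend Stub1 was still called, Bax was at -0.49 and Sec61b at -0.08, so that the call of Sec61b was lost, and Man1a, Man1c1 and Edem3 were at 1.13, 1.11 and 0.86. Calr (-0.04 and -0.02) and Hsp90b1 (-0.06 and -0.16) were not called in either comparison.

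**Figure D4:**
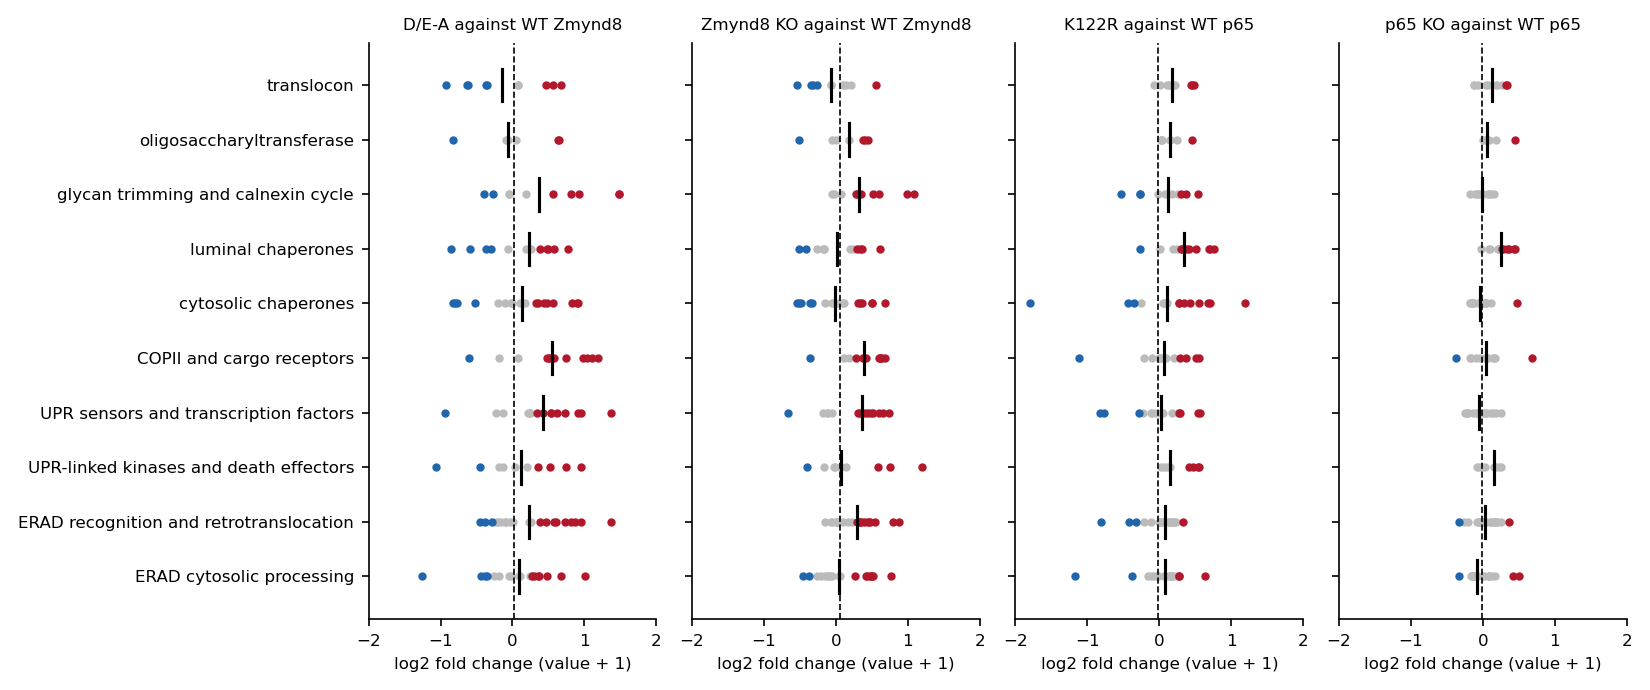
Each point is 1 member, with its log2 fold change on the deposited value plus 1 on the horizontal axis and its role group on the vertical axis, in 4 Raw264.7 comparisons; red and blue points were called higher and lower, grey points were not called, black bars are group medians and the dashed line is the median of all genes. COPII medians are 0.55 and 0.39 in the Zmynd8 comparisons, and luminal chaperone medians are 0.34 and 0.26 in the p65 comparisons.

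In the p65 lines, luminal chaperones had the highest group median in both comparisons. Of 143 members 44 were higher and 18 lower with K122R than with WT p65, beside 26.4% and 28.6% of all genes, and of 142 members 16 were higher and 6 lower in p65 KO, beside 19.3% and 19.4%. Both comparisons share the WT p65 library. With scaling by total reads and the exact binomial call in place of the fold alone, K122R gave 22 higher and 20 lower members, beside 12.2% and 30.4% of all genes, whose median change was then -0.14.

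Of 12 luminal chaperones 8 were higher and 1 lower with K122R (median 0.34) and 6 were higher and none lower in p65 KO (median 0.26). With total reads and the exact binomial call, the K122R counts were 4 and 1 (median 0.20) and the p65 KO counts 6 and none, and Hspa5, Hsp90b1, Pdia4 and Calr were no longer called with K122R. Hspa5 had a deposited value of 53811 with WT p65 and 66793 with K122R, and 53925 and 65792 in the table of p65 KO, log2 changes of 0.31 [0.30, 0.33] and 0.29 [0.27, 0.30]. Pdia6 parted between them, at 0.69 with K122R and 0.09, not called, in p65 KO. Hspa1b rose by 1.19 with K122R and 0.48 in p65 KO, and its copy Hspa1a had 1 to 2 reads in these libraries.

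Some sensor and ERAD genes were lower with K122R. Ern1 fell from a deposited value of 575 to 325, a log2 change of -0.82 [-1.02, -0.62], while its splicing target Xbp1 rose from 3724 to 5425, a change of 0.54 [0.48, 0.60]. Herpud1 fell from 2904 to 1654 (-0.81) and Mbtps2 from 2620 to 1533 (-0.77). The co-chaperone Bag2 fell most, by 1.79 on the log2 scale. In p65 KO these genes stood at -0.25 (Ern1), 0.15 (Xbp1) and 0.25 (Herpud1), none of them called. The integrated stress response factors Atf4 (0.26, not called), Ddit3 (0.57) and Ppp1r15a (0.29) were on the higher side with K122R on deposited values. Scaling by total reads lowered the median change of all genes with K122R from -0.02 to -0.14.

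The 8 members with an ERSE in the promoter window that were tested in BMDMs are described mainly in 4 comparisons, chosen after their values were seen. In the Zmynd8 lines, where Derl3 was tested too, 6 of 9 were higher and 1 lower with D/E-A (median 0.48, beside 36.7% and 35.9% of all genes called), or 4 and none without the length trend. In Zmynd8 KO 4 of 9 were higher and none lower (0.24, beside 34.7% and 28.3%). That became 2 and none under median ratio scaling, and 1 and 1 without the length trend (median 0.08). In WT BMDMs after LPS all 8 fell on CPM, beside 61.3% of all genes, and under median ratio scaling 6 fell while Hspa5 and Syvn1 turned to 0.06 and 0.21, not called. The median log2 change on CPM was -1.45, beside -0.73 for the 110 tested members whose window lacks it. In cKO 6 fell and none rose, beside 59.0% of all genes lower, or 5 and 2 under median ratio scaling, with a median on CPM of -1.04 beside -0.56. With IL-4 in WT 6 fell and none rose, beside 21.8% of all genes lower, with medians of -0.43 and 0.07, and in cKO 4 fell and none rose, beside 24.9%, with 2 of the 8 above 0 and a median of -0.22. With K122R 6 rose and none fell, beside 26.4% of all genes higher, with medians of 0.37 and 0.14, and with total reads and the exact binomial call 3 rose and none fell. In p65 KO 2 rose and none fell (median 0.19, beside 19.3% higher). In cKO against WT 4 were lower and none higher in NT (-0.24, beside 26.1% lower), though none was called without the length trend, and 4 were higher and none lower after LPS (0.21, beside 17.3% higher). Luminal chaperones are 5 of the 8, so the element and the role overlap. Herpud1, with ERSE-II, went with them after LPS (-0.83 and -0.99) and against them with IL-4 (1.33) and K122R (-0.81). Of the 6 genes with a UPRE all fell on CPM after LPS in WT (median -1.03, beside -0.73 for those without), and 5 fell in cKO (-0.49, beside -0.62).

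**Figure D5:**
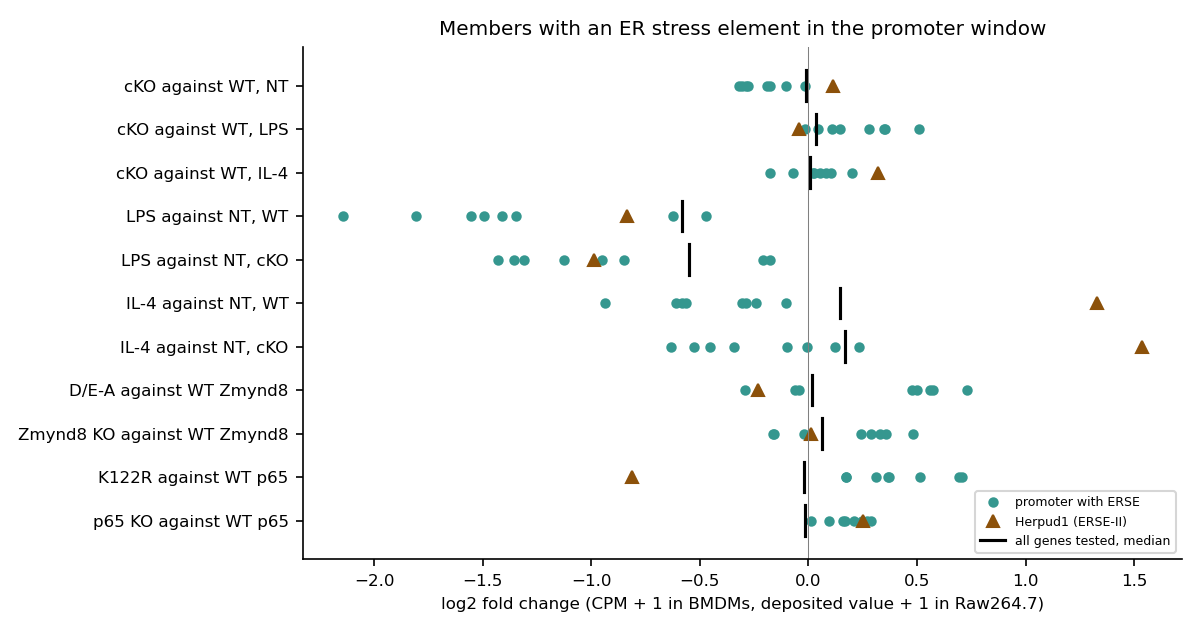
Each point is 1 of the 8 members with an ERSE in the promoter window that were tested in BMDMs, with its log2 fold change (CPM plus 1 in BMDMs, deposited value plus 1 in Raw264.7 cells) on the horizontal axis and the 11 comparisons on the vertical axis; triangles are Herpud1 and black bars the median of all genes. The ERSE genes lie left of 0 after LPS on this scale and right of 0 with K122R. Under median ratio scaling Hspa5 and Syvn1 turn after LPS, not called in WT and called higher in cKO. Herpud1 lies at 1.33 with IL-4 in WT and at -0.81 with K122R.

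Genes of the same biology that the pathway list lacks were read from 2 further lists. Of 27 other UPR and secretory genes 25 were tested after LPS, with 21 lower and none higher in WT (median -1.10, beside 61.3% of all genes lower and a median of -0.58) and 22 lower and 2 higher in cKO (median -0.97, beside 59.0% and -0.55). On deposited values 12 of 26 were higher and 1 lower with K122R (median 0.24, beside 26.4% and 28.6% of all genes), and in p65 KO 9 and none (0.12, beside 19.3% and 19.4%). With IL-4 1 of 25 was higher and 9 lower in WT (-0.12, beside 38.8% and 21.8%), and 5 of 26 were higher and 14 lower in cKO (-0.31, beside 42.4% and 24.9%). With D/E-A 6 of 25 were higher and 11 lower (-0.16, beside 36.7% and 35.9%), and in Zmynd8 KO 7 and 4 of 27 (0.05, beside 34.7% and 28.3%). In cKO against WT 6 of 26 were higher and 3 lower in NT (0.08, beside 21.9% and 26.1%). After LPS 5 of 25 were higher in cKO and 2 lower (0.12, beside 17.3% and 8.90%), and after IL-4 2 of 26 and none (0.06, beside 14.0% and 10.6%). The same shares of all genes stand beside the next list. Of 21 targets of the integrated stress response 17 of 20 tested were higher with K122R and none lower (median 0.62), against 3 and 3 in p65 KO (0.04). After LPS this list split, with 8 higher and 7 lower of 21 in WT and 11 and 8 of 20 in cKO. It gave 6 higher and 5 lower with IL-4 in WT, 12 and 5 in cKO, 5 and 9 with D/E-A and 4 and 5 in Zmynd8 KO. In cKO against WT the list gave 2 higher and 4 lower of 19 in NT (0.07, beside 21.9% and 26.1%), 3 and 2 of 21 after LPS (-0.06, beside 17.3% and 8.90%) and 8 and 2 of 21 after IL-4 (0.21, beside 14.0% and 10.6%).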

How the data were processed

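RNA-seq of 12 libraries was used, and the other samples of the series were not analysed here. For BMDMs, the authors used TopHat with mm10 and deposited gene-level estimated counts, which were rounded here, and TPM, which were used only to compare levels between genes. For Raw264.7 cells, the authors deposited 1 normalized signal value per gene and library, which equalled whole reads over a library factor for at least 99.99% of genes (within 0.01 reads). The study's methods name Cuffdiff, and the tables are named for DEGseq. Columns of the authors' fold changes and p-values, and 2 columns of sample values without a label, were left aside. The tables were normalized separately and compared only within a table, except that LPS and IL-4 were set against NT on CPM from the BMDM tables. The D/E-A table lists 12771 genes, fewer than the other 3 Raw264.7 tables.

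Left out were 431 entries (NT, LPS) and 2 (IL-4) of the BMDM files that are no genes. Log2 fold changes used CPM plus 1, or the deposited value plus 1, with a filter at a mean of 10, a fold of 1.2 and, for counts, an exact binomial test with Benjamini-Hochberg adjustment over all tested genes at 0.05. The design had assumed counts for the Raw264.7 tables and named the fold alone for other units. Members, roles and lists were chosen with earlier results of these data known. Named genes are those of a fixed list and, per comparison, the 5 highest and 5 lowest called members with a mean of at least 100; others are said to be named after their values were seen. Members were listed in the K122R, p65 KO, Zmynd8 KO and D/E-A tables for 161, 165, 163 and 139 genes. Transcript length is that of the longest GENCODE transcript, and positions are on mm10. The steps were tested on simulated data. Python 3.11.15, scipy 1.17.1 and pandas 2.3.3 were used.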

Additional observations from a re-analysis of the deposited data

Results flagged for a closer look

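For 13 of the named members the difference between cKO and WT had opposite signs under 2 treatments, called in both. No test of the difference between treatments was possible with 1 library per condition, so it was not tested. From NT to LPS the log2 change went from -0.86 to 0.55 for Atxn3, from -0.29 to 0.28 for Canx, from -0.32 to 0.51 for Dnajc3, from -0.83 to 0.60 for Edem3, from -0.38 to 0.52 for Eif2ak3 and from -0.98 to 0.45 for Ern1. It went from -0.71 to 0.38 for March6, from -0.68 to 0.56 for Mbtps2, from -0.53 to 0.68 for Sec24a and from -0.39 to 0.34 for Sec24d, and the other way, from 0.32 to -0.30, for Sec61g. In Eif2ak2 it went from -1.62 in NT to 0.57 after IL-4. After IL-4 it stood at -0.27 for Atxn3 and -0.32 for Eif2ak3, opposite to LPS, and Ppp1r15a went from -0.33 after LPS to 0.31 after IL-4. Calls lower in NT and higher after LPS were made for 10.5% of all genes tested in both, and 13 of 137 members. Transcript length moved with these differences. Canx, Dnajc3, Eif2ak3, Ern1, March6 and Sec24a were no longer called in both with that trend taken off.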

How the results depend on the processing

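Counts of called members moved by over 1.5 times in some settings, given as higher and then lower. A fold of at least 1.5 left 5 and 8 (cKO against WT, NT), 3 and 1 (LPS), 0 and 1 (IL-4), 10 and 14 (IL-4 against NT, WT), 17 and 16 (cKO), 31 and 14 (D/E-A), 20 and 2 (Zmynd8 KO), 9 and 7 (K122R) and 3 and 2 (p65 KO). Median ratio scaling gave 48 and 57 for LPS in WT, 49 and 52 in cKO, and 53 (WT) and 51 (cKO) lower with IL-4. Without the length trend 13 were lower in cKO in NT, 17 higher in cKO after LPS, 34 and 60 for LPS in cKO, 23 higher with IL-4 in cKO, and 40 and 33 in Zmynd8 KO. Without the filter 32 were lower in Zmynd8 KO, and 29 and 12 in p65 KO. A mean of at least 100, or total reads with the exact binomial call, left 3 lower in p65 KO, and the latter left 22 higher with K122R. These follow from the settings' construction, and otherwise the cause was not tested. A pseudocount of 0.1 moved no count by that much.

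Among named members called in the main setting, signs reversed for Hspa5 (0.064) and Syvn1 (0.21) with LPS in WT and for Atf6 (0.11) and Ern1 (0.25) in cKO under median ratio scaling. Hspa5 and Syvn1 with LPS in cKO, below 0 and not called on CPM, were called higher under that scaling. For members called in the main setting, further reversals follow. Without the length trend signs reversed for Hspa5 (0.060) and Syvn1 (0.10) with LPS in WT and for Edem1 with D/E-A (-0.040). With the other genotype's NT library they reversed for Atf6 (0.19), Dnajc3 (0.030), Eif2ak2 (0.88) and Hspa1b (0.18) with IL-4 in WT, and for Eif2ak2 (-0.17) in cKO. The last 2 settings were chosen after seeing the data. No paired analysis was possible because the groups compared share fewer than 2 replicate numbers, and a fit with treatment or genotype as a block was not run. One library per condition limits every difference, and depth limits genes near 10 counts.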
